A study of Mus musculus with 12 samples.

Results

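The 36 genes described here encode proteins of stratified squamous differentiation, the programme by which layered epithelium of skin, mouth and oesophagus builds its surface. They were listed by symbol and found by Ensembl gene identifier, with 1 row for each of the 36, among 52636 gene rows of a table of read counts. RNA had been sequenced from mouse salivary glands dissected from E13.5 embryos and cultured for 2 days on filter membranes at the surface of the medium. The 12 libraries fall into 5 groups. SU5402 glands (3 libraries) were wild-type and received 2.5 µM of the FGF receptor kinase inhibitor SU5402, and DMSO glands (3 libraries) were wild-type and received the solvent. HOM glands (2 libraries) were homozygous for deletion of Fgfr2b, the epithelial isoform of FGF receptor 2, by the K14Cre transgene, and HET (2 libraries) and WT (2 libraries) glands were their heterozygous and wild-type littermates, all 3 without treatment. Because Cre is driven by the keratin 14 promoter, deletion depends on cells that use that promoter, as the basal cells of stratified epithelium do.

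In stratified epithelium, basal cells that carry keratins 5 and 14 divide, move upward and change their keratins: to keratins 1 and 10 in skin, to keratins 4 and 13 in oral and oesophageal mucosa, and to keratins 6 and 16 in activated or fast-turning epithelium. The upper cells then assemble a cornified envelope, in which periplakin, envoplakin and involucrin form a scaffold, small proline-rich proteins fill it and transglutaminases crosslink it, while desmogleins and desmocollins hold the cells together. The embryonic submandibular gland grows from the oral epithelium, and its ducts and end buds are lined by epithelium of a different type.

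Library totals ran from 6043701 to 22322182 counts. Fgfr2 was read at 89.2 and 94.4 CPM (counts scaled to a common library size by TMM) in HOM glands, against 86.2 and 99.9 CPM in HET and 101 and 99.2 CPM in WT glands. This is a whole-gene count that takes in other isoforms and checks nothing about the deleted exon. In bulk tissue, fewer cells of a type and less RNA per cell cannot be told apart. Nothing in the labels ties a library to its own embryo or litter, so the p-values measure only how much these libraries vary, which may be technical. Within groups, Xist and Y-linked counts set only DMSO 2 apart, as a male library beside females. DMSO 2 must therefore stem from another embryo than DMSO 1 and DMSO 3. Genes expressed across epithelia (18 genes, among them Epcam and Cdh1) summed to 1638 to 1828 CPM in SU5402 glands against 2229 to 2495 CPM in DMSO glands, and to 1670 and 1770 CPM in HOM glands against 2052 to 2418 CPM in the 4 littermate libraries. Other lists moved as well. With SU5402, 16 of 18 pan-epithelial and 11 of 13 end bud genes fell, and 16 of 18 mesenchyme and 11 of 11 tested skeletal muscle genes rose. Muscle genes summed to 184 to 818 CPM with SU5402 against 30.9 to 93.1 CPM with DMSO, and mesenchyme genes to 4083 to 5576 CPM against 2510 to 2639 CPM. In HOM glands 9 of 18 pan-epithelial genes fell, and 11 of 18 mesenchyme and 6 of 11 muscle genes rose. Of all genes tested, 10.7% were called lower and 9.73% higher with SU5402, and 2.44% lower and 3.44% higher in HOM glands. The part of these lists in the results below was not tested beyond the rescaling to pan-epithelial genes given beside those results.

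Promoter windows from RefSeq (build GRCm38.p6) existed for 23 of the 36 genes, each holding 250 bases before and 50 bases after an annotated start. The letters TATAAA, on either strand, stood in windows of 11 of these 23 genes (47.8%), against 15.7% of 27025 genes with a window. The letters TGANTCA, which AP-1 factors can bind and which read alike on both strands, stood in 8 of the 23 (34.8%), against 8.97% of all. Shares were nearer for CCAAT (43.5% of members, 41.1% of all) and CACCC (73.9% and 59.8%), and GGGCGG stood in 21.7% of members and 38.2% of all. The printed stretches hold the 250 bases before the start, in capitals where TATAAA or TGANTCA occurs. They belong to the envelope gene Sprr1a and both annotated starts of Krt13, whose levels moved together between libraries. The others belong to A2ml1, called lower in both SU5402 and HOM glands with limits given below, and to Klf4, a regulator with neither motif. The coordinates are Sprr1a chr3:92485882-92486131, Krt13 chr11:100120578-100120827 (start A) and chr11:100121567-100121816 (start B), A2ml1 chr6:128581607-128581856 and Klf4 chr4:55532476-55532725, all on the minus strand.
Sprr1a: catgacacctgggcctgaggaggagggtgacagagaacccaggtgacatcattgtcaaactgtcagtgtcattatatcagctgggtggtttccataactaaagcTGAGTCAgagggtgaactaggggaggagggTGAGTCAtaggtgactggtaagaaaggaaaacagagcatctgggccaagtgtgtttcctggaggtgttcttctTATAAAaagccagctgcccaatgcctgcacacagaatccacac
Krt13 start A: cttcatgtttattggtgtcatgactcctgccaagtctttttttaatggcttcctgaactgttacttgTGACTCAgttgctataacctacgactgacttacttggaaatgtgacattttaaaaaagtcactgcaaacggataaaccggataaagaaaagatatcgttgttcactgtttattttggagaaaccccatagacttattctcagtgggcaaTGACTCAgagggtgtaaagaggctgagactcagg
Krt13 start B: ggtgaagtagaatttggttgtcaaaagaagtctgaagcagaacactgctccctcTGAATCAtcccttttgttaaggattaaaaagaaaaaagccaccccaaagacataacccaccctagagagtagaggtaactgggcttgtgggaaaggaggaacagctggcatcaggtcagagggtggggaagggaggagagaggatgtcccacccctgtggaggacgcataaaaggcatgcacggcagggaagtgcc
A2ml1: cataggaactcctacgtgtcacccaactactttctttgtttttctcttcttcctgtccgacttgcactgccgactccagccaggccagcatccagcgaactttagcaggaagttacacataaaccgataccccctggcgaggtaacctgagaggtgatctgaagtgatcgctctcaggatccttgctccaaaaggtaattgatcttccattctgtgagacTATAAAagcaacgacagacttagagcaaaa
Klf4: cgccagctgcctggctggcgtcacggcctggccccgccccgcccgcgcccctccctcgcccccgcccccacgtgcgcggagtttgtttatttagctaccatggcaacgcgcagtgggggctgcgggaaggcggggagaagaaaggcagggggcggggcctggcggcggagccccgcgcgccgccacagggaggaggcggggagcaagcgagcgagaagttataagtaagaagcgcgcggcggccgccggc

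Read per length of exon sequence, the mucosal keratins led the 36 genes. Krt4 and Krt13, partners in the suprabasal cells of mucosa, averaged 43.7 and 39.5 CPM per kilobase over the 12 libraries. Zfp750, a transcription factor of epidermal differentiation, followed at 15.9 CPM per kilobase, then Sfn, which encodes the 14-3-3 sigma protein of squamous cells, at 14.5, Krt6a at 12.2, Ppl (periplakin) at 11.04, Evpl (envoplakin) at 7.28 and Klf4, a transcription factor of barrier formation, at 6.22. Their order carries little weight for Krt4, Krt13 and Krt6a, whose libraries within a group differed severalfold. The epidermal keratins were lower, at 1.51 CPM per kilobase for Krt10 and 0.559 for Krt1.

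Several late cornification genes were scarce. Ivl, involucrin, was read with 0 to 2 counts in any library, and Sprr1b with 1 count in all 12 libraries together. Including those, 9 of the 36 genes (Crct1, Dsc1, Ivl, Klk10, Krt16, Krt78, Serpinb2, Sprr1b and Tgm3) fell below the filter on low counts and were not tested, which left 27. Outside the 36, 16 of 98 further keratinocyte genes had no count in any library. Lor and Flg, the loricrin and filaggrin of the granular layer of skin, reached at most 0.513 and 0.367 CPM.

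**Figure D1:**
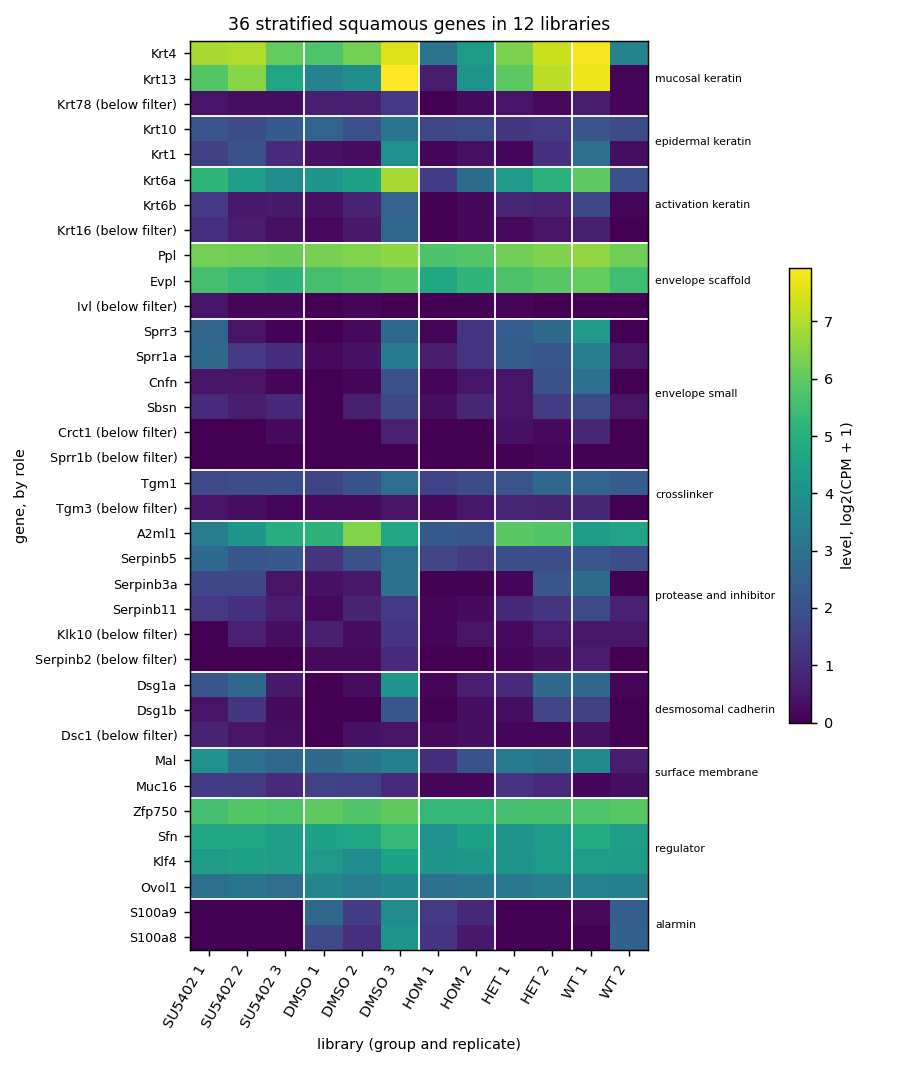
Level of each of the 36 genes, as log2(CPM + 1), in each of the 12 libraries, with genes grouped by role and libraries by group. Ppl, Evpl and Zfp750 are bright throughout, whereas Krt4, Krt13 and Krt6a are bright in DMSO 3 and WT 1 (243 and 213 CPM for Krt13) and dark in HOM 1 and WT 2.

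The keratins differed more between libraries of one group than most genes did. Krt13 was read at 54.9, 90.9 and 24.4 CPM in the SU5402 libraries 1 to 3, against 10.5, 14.2 and 243 CPM in the DMSO libraries 1 to 3. In the genetic series Krt13 stood at 0.560 and 15.4 CPM in HOM 1 and 2, 59.6 and 136 CPM in HET 1 and 2, and 213 and 0.108 CPM in WT 1 and 2, where the last value is 1 count. DMSO 3 and WT 1 were thus far above the other library or libraries of their groups, and the groups overlapped.

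Krt4 followed the same order, with 117, 125 and 64.4 CPM in SU5402 libraries against 52.2, 76.8 and 182 CPM in DMSO libraries, and 7.28 and 19.2 CPM in HOM, 82.2 and 155 CPM in HET and 227 and 10.9 CPM in WT libraries. Krt6a, a keratin of activated epithelium, was read at 35.6, 20.9 and 13.9 CPM with SU5402 against 16.9, 22.7 and 119 CPM with DMSO. It was read at 1.76 and 5.999 CPM in HOM, 18.5 and 33.3 CPM in HET and 61.2 and 2.81 CPM in WT libraries. For each of these 3 keratins WT 2 lay between or below the HOM libraries and WT 1 lay above every HET library. Krt6a and Krt6b are close copies, so reads may have been split between them.

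Small envelope genes and desmosomal cadherins split the same libraries. Sprr3, a small proline-rich envelope protein of oesophagus and mouth, was read at 4.95, 0.324 and 0.0553 CPM with SU5402 against 0, 0.156 and 5.42 CPM with DMSO. In the genetic series Sprr3 was at 0.0800 and 1.32 CPM in HOM, 4.16 and 5.63 CPM in HET and 18.2 and 0 CPM in WT libraries. Dsg1a, a desmoglein of upper layers that has close copies in the mouse, was at 3.30, 5.40 and 0.498 CPM with SU5402 against 0, 0.208 and 16.7 CPM with DMSO. Krt1, the first keratin of suprabasal skin, was at 1.83, 2.91 and 0.941 CPM with SU5402 against 0.318, 0.208 and 14.9 CPM with DMSO. In all 3 genes DMSO 3 was the highest DMSO library, and both other DMSO libraries lay below SU5402 1.

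Sprr1a and several other members were read at low levels. Sprr1a, a small proline-rich protein of the envelope, was read at 5.69, 1.51 and 1.05 CPM with SU5402 against 0.159, 0.312 and 8.37 CPM with DMSO, and at 0.560 and 1.28 CPM in HOM, 4.01 and 3.38 CPM in HET and 9.38 and 0.324 CPM in WT libraries. DMSO 3 and WT 1 were again highest of their groups. Serpinb3a, a mouse squamous cell carcinoma antigen gene with close copies, had 12, 21 and 6 counts with SU5402 against 2, 8 and 39 with DMSO, and 0 and 1 counts in HOM, 1 and 41 in HET and 82 and 0 in WT libraries. Serpinb5, which encodes maspin, ran between 1.27 and 6.24 CPM over the 12 libraries, and Cnfn, Sbsn (suprabasin), Dsg1b and Krt6b between 0 and 6.52, 2.42, 3.28 and 4.597 CPM. Of the genes below the filter, Krt16, a partner of keratin 6, reached 5.42 CPM in DMSO 3 and at most 1.10 CPM elsewhere, and Klk10, Krt78, Serpinb2, Tgm3, Crct1 and Dsc1 reached 1.31, 1.48, 0.985, 0.806, 0.806 and 0.734 CPM in their highest libraries.

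Over the 27 tested genes, the within-group SD of log2(CPM + 1) had a median of 0.767, beside 0.161 over all 15859 genes tested and 0.162 over the 13080 genes within the same range of mean level. Of the 27, 19 lay above 0.342, the 90th percentile of all genes tested. Krt13 had the largest SD of the members, 2.64, at percentile 99.99 of all genes tested. Ppl (0.148), Ovol1 (0.140) and Zfp750 (0.0945) lay below the median of all genes. The same median was 0.182 for 17 basal epithelial genes, 0.187 for 18 luminal duct genes, 0.354 for 48 further keratinocyte genes and 0.108 for the 18 pan-epithelial genes. These are descriptions without a test. The members were chosen with earlier results of these data known, among them that 1 DMSO and 1 WT library were high. Their large spread is therefore no independent result.

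**Figure D2:**
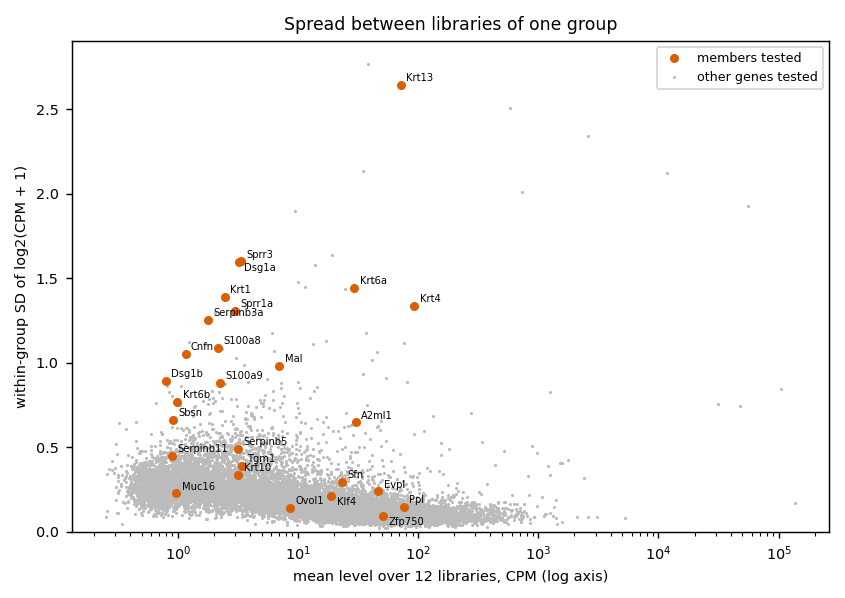
Within-group SD of log2(CPM + 1), with 1 CPM as pseudocount, against the mean CPM over 12 libraries on a log axis, for the 27 tested members (orange, named) and all other genes tested (grey). Krt13 (2.64) stands at the top, and Zfp750 (0.0945), Ovol1 and Ppl lie inside the grey band.

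Most members with a large spread varied together. DMSO 3 was the highest library of its group for 25 of 27 members, WT 1 for 22, HOM 2 for 23, HET 2 for 20 and SU5402 1 for 15. Deviations from group means correlated with those of Krt13 at 0.7 or more in 16 of the 26 other members, over 12 libraries that share these groups. The share of all genes that reach this r was not counted, nor the share with the same library highest. Neither the 16 nor the counts of highest libraries can therefore be read as a trait of the members. Of the 18 other members above the 90th percentile of SD, 13 reached that r, and Tgm1, Serpinb5, A2ml1, S100a8 and S100a9 did not. Krt4 (r = 0.976), Krt6a (0.971), Ppl (0.926) and Cnfn, the envelope protein cornifelin (0.924), were closest, although the SD of Ppl was below the median of all genes. Zfp750 (-0.00882), A2ml1 (-0.410), Muc16 (-0.446), S100a8 (-0.163) and S100a9 (-0.267) did not follow Krt13. S100a8 and S100a9, whose proteins pair as calprotectin, followed each other (r = 0.974).

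Outside the 36 genes, deviations most like the mean of the tested members were those of Lypd3 (r = 0.993), a surface protein of suprabasal keratinocytes, the water and glycerol channel gene Aqp3 (0.981) and the desmoglein gene Dsg3 (0.966), followed by Rexo4 (0.965), Ttc9 (0.961), Cdkn1a (0.961), Krt14 (0.961), Dmkn (0.958), Foxe1 (0.955), Gprc5a (0.953), Grasp (0.953) and Adgre1 (0.952), each over 12 libraries. These 12 were picked for the highest r among the other tested genes, so high values were set by that choice. In groups of 2 libraries the deviations are equal and opposite, so the 12 values behind each r are not independent. The genes picked include Rexo4, which ran only from 24.8 to 28.9 CPM, and the macrophage gene Adgre1. Krt14, the basal keratin whose promoter drives Cre, was at 54.5 and 69.8 CPM in HOM libraries, 73.5 and 116 CPM in HET and 137 and 63.7 CPM in WT libraries. Krt14 was at 196, 156 and 133 CPM with SU5402 against 60.5, 92.2 and 197 CPM with DMSO. As for Krt13, DMSO 3 and WT 1 were the highest of their groups.

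**Figure D3:**
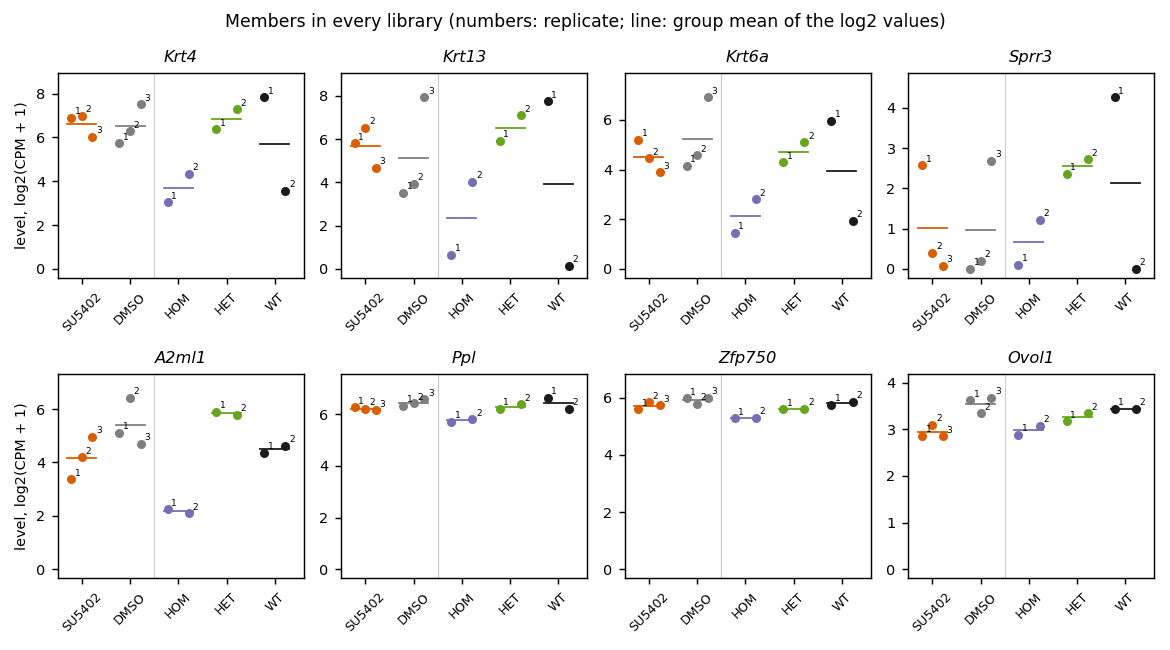
Level of 8 members as log2(CPM + 1) in every library, with replicate numbers beside the points and the group mean of the log2 values as a line. Krt4, Krt13, Krt6a and Sprr3 differ most between libraries of one group, while both HOM libraries lie below all 4 HET and WT libraries for A2ml1 (3.27 to 3.76 CPM in HOM against 19.7 to 59.0 CPM), Ppl and Zfp750.

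SU5402 glands were compared with DMSO glands to ask what blocking FGF receptors does. With SU5402, 4 of the 27 tested members fell (S100a8, S100a9, Ovol1 and A2ml1) and 0 rose by edgeR's quasi-likelihood test with Benjamini-Hochberg adjustment over all genes. That is 14.8% of the members, beside 10.7% of all 15859 genes called lower and 9.73% called higher. For the count of 0, no member with a positive change had an unadjusted p under 0.05 (0 of 27, against 7 lower ones), and DESeq2 called 0 higher and 3 lower. The median log2 change of the 27 was -0.45, beside -0.02 for all genes, and it was 0.30 without DMSO 3. Of 18 luminal duct genes, 9 fell and 3 rose in the same comparison.

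Ovol1, a zinc finger factor that promotes the exit of epidermal progenitors into differentiation, was read at 6.24, 7.56 and 6.198 CPM with SU5402 against 11.3, 9.16 and 11.8 CPM with DMSO. The groups did not overlap, and each SU5402 library lay below each DMSO library. The log2 change was -0.66 ± 0.16 (SE, n = 3 each; adjusted p = 0.00793 by edgeR's quasi-likelihood test), and the call held without any 1 of the 6 libraries. Scaled to the pan-epithelial genes, the Ovol1 change was smaller, and it was not called (adjusted p = 0.262). Scaled by library totals alone it was not called either.

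A2ml1 encodes a protease inhibitor of the alpha-2-macroglobulin family found in stratified epithelium. It was read at 9.36, 17.3 and 30.0 CPM with SU5402 against 33.7, 85.2 and 24.96 CPM with DMSO, so that SU5402 3 overlapped DMSO 3. The log2 change was -1.31 ± 0.37 (SE, n = 3 each; adjusted p = 0.0216 by edgeR's quasi-likelihood test). It ran from -1.86 to -0.52 when 1 library was left out, and the call was lost without SU5402 1, SU5402 2 or DMSO 2 (adjusted p up to 0.243). The call was also lost by DESeq2 (adjusted p = 0.0757) and by edgeR's quasi-likelihood test on the compared groups alone (0.0837). With sex as a covariate the log2 change was -0.52 (adjusted p = 0.243 by the same test). DMSO 2, which held the highest level, is the 1 male library of the 6. That fit therefore nearly repeats the one without DMSO 2 and is no separate sign of a dependence on sex.

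The keratins and envelope genes were not called. Krt4 had a log2 difference of -0.02 with a 95% interval of -1.44 to 1.40, and Krt13 one of -0.62 with an interval of -3.08 to 1.84. These intervals hold changes of severalfold in either direction. The scaffold genes had narrower ones: Evpl was read at 47.2, 39.2 and 34.8 CPM with SU5402 against 47.1, 51.0 and 57.1 CPM with DMSO (log2 -0.38, interval -0.71 to -0.05, adjusted p = 0.0998 by edgeR's quasi-likelihood test). Ppl gave log2 -0.24 and Zfp750 -0.19 (adjusted p = 0.119 and 0.132 by the same test), and Klf4 gave 0.24 (adjusted p = 0.313). Scaled to the pan-epithelial genes, which put the median of all genes at 0.425 on the log2 scale, Zfp750 was called higher at 0.24.

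HOM glands were compared with the mean of the HET and WT littermate groups to see how deleting Fgfr2b in keratin 14 cells shifts these genes. In HOM glands, 6 of the 27 tested members fell (A2ml1, Ppl, Evpl, Zfp750, Serpinb11 and Krt4) and 0 rose by edgeR's quasi-likelihood test with Benjamini-Hochberg adjustment. That is 22.2% of members, beside 2.44% of all genes called lower and 3.44% called higher. Other epithelial lists had larger shares of genes called lower, with 11 of 18 luminal duct genes and 9 of 18 pan-epithelial genes. At an unadjusted p under 0.05, 15 members were lower and 0 higher, and DESeq2 called 6 lower and 0 higher. The median log2 change was -2.13, beside 0.00055 for all genes, and 24 of 27 changes were below 0. The median was -0.47 over the 30 members tested without WT 1 and -1.35 over the 31 tested without HOM 1.

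Both HOM libraries were female and all 4 littermate libraries male by their Xist and Y-linked counts, so genotype and sex cannot be told apart in this comparison. All 3 SU5402 libraries and DMSO 1 and DMSO 3 were female and DMSO 2 male. A sex term can be estimated from the DMSO libraries alone, as DMSO 2 against DMSO 1 and DMSO 3. It cannot separate sex from the spread of these libraries, so the following counts do not measure the deletion with sex removed. Klf4, for one, was at 13.4 CPM in DMSO 2 against 18.8 and 22.7 CPM in DMSO 1 and DMSO 3, and is among the 19 below. With sex as a covariate, 0 members were called by edgeR's quasi-likelihood test, with 19 lower and 0 higher at an unadjusted p under 0.05. Of all genes, 0.177% were then called lower and 0.114% higher, and 4.63% were lower and 3.92% higher at an unadjusted p under 0.05. A2ml1 then had a log2 change of -1.79 (adjusted p = 0.150).

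A2ml1 had the smallest p-value of the 27 members in HOM glands. It was read at 3.76 and 3.27 CPM in HOM glands, against 59.0 and 53.8 CPM in HET glands and 19.7 and 23.6 CPM in WT glands. No HOM library came near a littermate library, and the HET libraries lay above the WT libraries. The log2 change was -3.33 ± 0.50 (SE; n = 2 HOM, 4 littermates; adjusted p = 0.00143 by edgeR's quasi-likelihood test), a 10.03-fold lower level, and it ran from -3.41 to -3.21 when 1 library was left out. The call was lost without HOM 2 (adjusted p = 0.0734).

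Both tested genes of the envelope scaffold fell. Ppl was read at 51.7 and 55.1 CPM in HOM, 72.8 and 82.8 CPM in HET and 99.2 and 73.6 CPM in WT libraries, a log2 change of -0.62 ± 0.11 (SE; adjusted p = 0.00401 by edgeR's quasi-likelihood test). Evpl was read at 26.1 and 35.5 CPM in HOM, 51.6 and 58.3 CPM in HET and 65.6 and 44.1 CPM in WT libraries, a log2 change of -0.82 ± 0.16 (SE; adjusted p = 0.00759 by the same test). In neither gene did HOM libraries overlap the littermates. The Ppl call was lost without HOM 2 and the Evpl call without HOM 1.

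Among the regulators, Zfp750 stood at 37.8 and 38.4 CPM in HOM, 47.3 and 48.2 CPM in HET and 52.8 and 57.3 CPM in WT libraries. The change was small, with little spread and no overlap: -0.43 ± 0.09 on the log2 scale (SE; adjusted p = 0.0106 by edgeR's quasi-likelihood test). The call was lost without HOM 1, HOM 2 or WT 2. Ppl, Evpl and Zfp750 were no longer called when scaled to the pan-epithelial genes or to library totals, which put the median of all genes at 0.372 and 0.148 on the log2 scale, while A2ml1, Krt4 and Serpinb11 were called under both. Against HET glands alone, A2ml1, Ppl, Evpl and Muc16 were called lower, and Zfp750, Krt4 and Serpinb11 were not. Ovol1 was at 6.40 and 7.45 CPM in HOM, 8.02 and 9.17 CPM in HET and 9.89 and 9.83 CPM in WT libraries (log2 -0.40, interval -0.73 to -0.07, adjusted p = 0.156). Sfn and Klf4 had log2 differences of -0.15 (-0.56 to 0.27) and -0.10 (-0.42 to 0.22).

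Krt4 and Serpinb11 fell with wide errors. Krt4, whose levels are given above, had a log2 change of -3.096 ± 0.83 (SE; adjusted p = 0.0402 by edgeR's quasi-likelihood test), and WT 2 (10.9 CPM) lay between HOM 1 and HOM 2. It ran from -4.04 to -1.35 when 1 library was left out, and the call was kept in 1 of 6 such fits, the one without WT 2. Serpinb11, a serpin of the gene cluster that holds the squamous cell carcinoma antigens, had 1 and 4 counts in HOM, 11 and 16 counts in HET and 32 and 6 counts in WT libraries. Its change was -3.17 ± 0.79 (SE; adjusted p = 0.0287 by the same test), and its call was kept in 2 of 6 such fits, lost without HOM 1, HOM 2, HET 2 or WT 1.

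Other members had lower fitted levels in HOM glands without passing the test. Krt13 gave -3.50 (interval -6.59 to -0.41, adjusted p = 0.189 by edgeR's quasi-likelihood test) and Krt6a -2.77 (-4.84 to -0.70, adjusted p = 0.113). Mal, a raft protein of apical transport, was read at 1.04 and 2.98 CPM in HOM, 8.86 and 7.56 CPM in HET and 12.7 and 0.540 CPM in WT libraries (adjusted p = 0.143), where WT 2 again lay below both HOM libraries. Tgm1, the transglutaminase of the envelope, was read at 2.00 and 2.57 CPM in HOM, 3.104 and 5.23 CPM in HET and 4.98 and 3.999 CPM in WT libraries (log2 -0.90, interval -1.64 to -0.16, adjusted p = 0.153). Krt10, at 2.24 and 2.44 CPM in HOM, 1.44 and 1.53 CPM in HET and 3.30 and 2.59 CPM in WT libraries, had a log2 difference of 0.16 (-0.57 to 0.89).

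**Figure D4:**
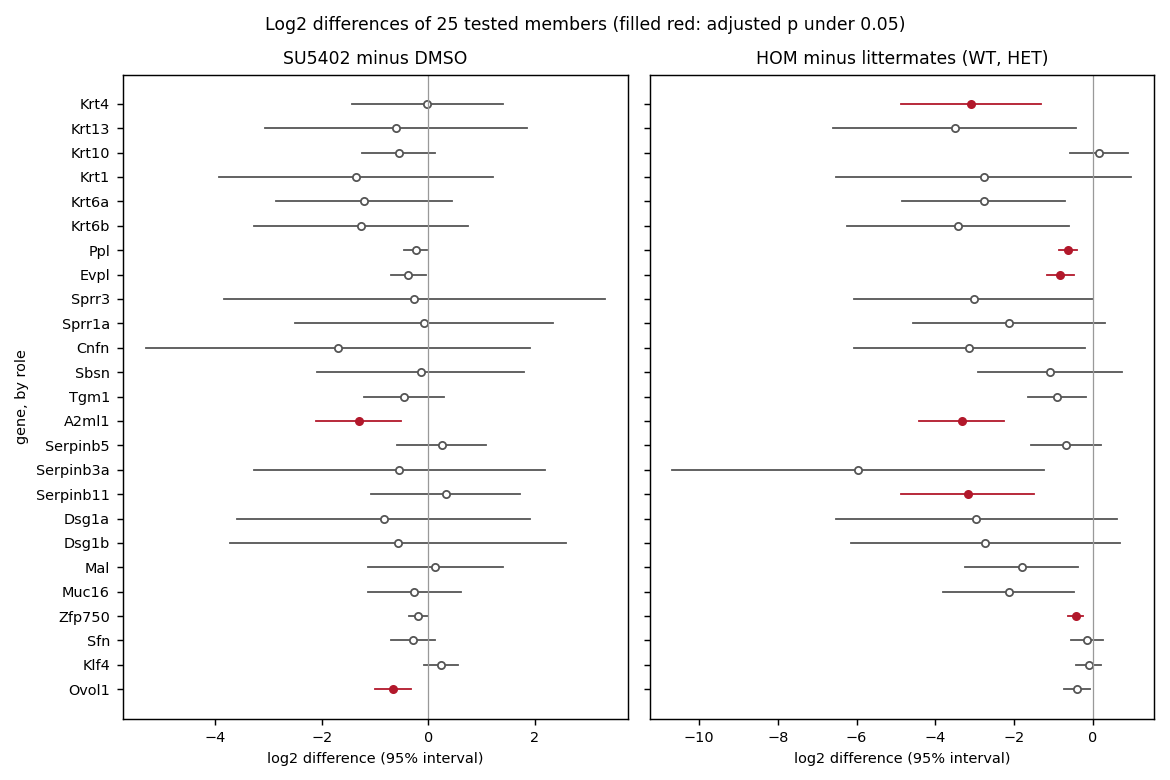
Log2 difference with its 95% interval for 25 of the 27 tested members in both comparisons, with called members filled red. S100a8 and S100a9 are left out because all 3 SU5402 libraries had 0 counts; A2ml1 is the 1 member called in both panels, and most keratin and envelope intervals span several log2 units.

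A2ml1 was the 1 member called lower in both comparisons, out of 4 called with SU5402 and 6 called in HOM glands. Of all genes, 10.7% were called lower with SU5402 and 2.44% in HOM glands. The share called lower in both was not counted, so the overlap of 1 cannot be read as a trait of the members. Both calls of A2ml1 were lost with sex as a covariate, a term that rests on DMSO 2 against DMSO 1 and DMSO 3. S100a9 was the 1 member whose SU5402 effect and HOM effect differed in a direct test of the difference (adjusted p = 0.0307 by edgeR's quasi-likelihood test), beside 2.77% of all genes tested. For A2ml1 that test gave a difference of 2.02 ± 0.63 on the log2 scale (SE), SU5402 effect minus HOM effect, which was not called (adjusted p = 0.105), and for Krt4 3.07 ± 1.04 (adjusted p = 0.136).

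S100a8 and S100a9 encode alarmins that stressed keratinocytes make and that neutrophils hold in bulk. S100a8 had 0 counts in all 3 SU5402 libraries, against 2.55, 1.09 and 16.1 CPM (16, 21 and 98 counts) in DMSO libraries. S100a9 had 0 counts in all 3 SU5402 libraries, against 5.25, 1.72 and 13.3 CPM in DMSO libraries. With 3 counts in the whole SU5402 group as the floor, which covers counting error only, S100a8 was at least 71.9-fold lower (adjusted p = 0.0160 by edgeR's quasi-likelihood test) and S100a9 at least 73.8-fold lower (adjusted p = 0.00453 by the same test). Leaving out DMSO 3 gave bounds of 19.9-fold for S100a8 and 38.1-fold for S100a9. Leaving out SU5402 3 ended that call for S100a8, at an adjusted p of 0.05004.

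In the genetic series, S100a8 was read at 1.36 and 0.455 CPM in HOM, 0 CPM in both HET, and 0 and 4.54 CPM in WT 1 and 2. S100a9 was read at 1.52 and 0.869 CPM in HOM, 0 CPM in both HET, and 0.147 and 4.32 CPM in WT 1 and 2. So the WT library that was lowest in Krt13 was the highest in both alarmins, and HOM libraries lay between the WT libraries. Neither gene was called between HOM glands and littermates.

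A list of 16 neutrophil genes also holds S100a8 and S100a9. It summed to 4.22 to 5.94 CPM in SU5402 libraries, against 19.3 to 67.3 CPM in DMSO libraries. It summed to 20.0 CPM in each HOM library, against 8.44 to 11.4 CPM in HET and 8.72 to 31.1 CPM in WT libraries. Of these sums, Lcn2, which epithelia also make, held 13.7 CPM in each HOM library. Lcn2 was at 9.39 and 6.83 CPM in HET and 5.79 and 9.51 CPM in WT libraries. In HOM glands 1 of the 8 tested genes rose and 0 fell, beside 3.44% of all genes called higher. That gene was Lcn2 (log2 0.81 ± 0.20, SE; adjusted p = 0.0271 by edgeR's quasi-likelihood test). With SU5402, 5 of the 8 fell, beside 10.7% of all genes: both alarmins, Mpo, Ngp and Lcn2. Ngp, a neutrophil granule protein gene, was at 0, 0 and 0.111 CPM with SU5402 against 0.637, 0.260 and 12.8 CPM with DMSO, and at 1.44 and 1.37 CPM in HOM, 0.151 and 0.0804 CPM in HET and 0.0732 and 7.57 CPM in WT libraries. DMSO 3 and WT 2 were highest for Ngp and the alarmins, but other genes of the list differed in order. Mpo, myeloperoxidase, was at 2.55, 1.72 and 0.985 CPM in DMSO 1 to 3, and Prtn3, proteinase 3, at 2.55, 1.51 and 0.657 CPM, so that DMSO 3 was lowest for both. Ly6g, a surface marker of mature neutrophils, had 0 counts in all 12 libraries. Elane had counts only in the DMSO libraries and WT 2 (at most 0.478 CPM), and Fcnb only in DMSO 3 (0.821 CPM). The part of neutrophils in the alarmin values was not tested.

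**Figure D5:**
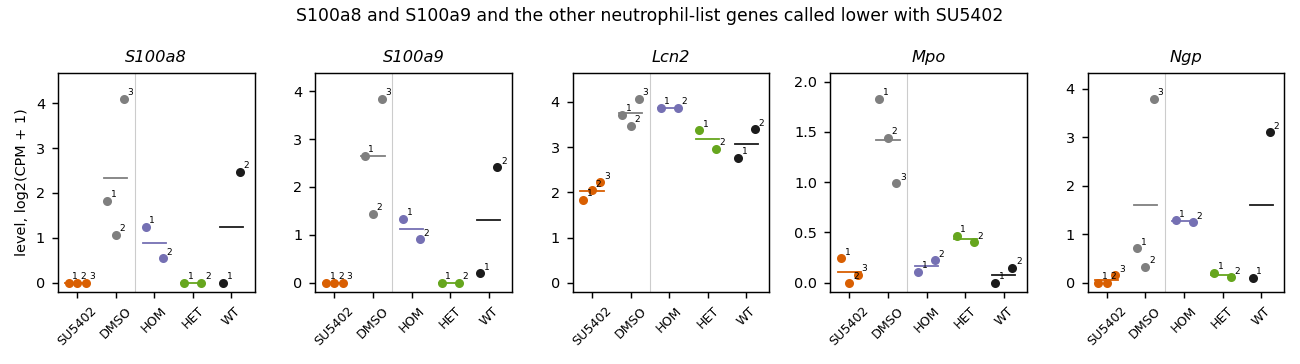
Level of S100a8, S100a9, Lcn2, Mpo and Ngp, the 5 neutrophil-list genes called lower with SU5402, as log2(CPM + 1), in every library with replicate numbers and the group mean of the log2 values as a line. All SU5402 points lie below all DMSO points, and DMSO 3 is the highest DMSO library in each panel but that of Mpo, where DMSO 1 is (2.55 CPM).

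The control groups were also compared with each other. Between HET and WT glands 0 of the 27 members were called by edgeR's quasi-likelihood test, beside 1.22% of all genes. At an unadjusted p under 0.05, 4 members were lower and 2 higher in HET, and DESeq2 called 0. Muc16, a membrane mucin of wet epithelial surfaces, came nearest, with 17 and 12 counts in HET and 1 and 2 counts in WT libraries (adjusted p = 0.0527).

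DMSO and WT glands differ in the solvent and perhaps in the cross. They also differ in sex, since DMSO 1 and DMSO 3 were female and DMSO 2 and both WT libraries male. The part of each was not tested. Between these groups 1 of the 27 members was called, beside 2.26% of all genes. Muc16 was read at 1.91, 1.82 and 0.985 CPM in DMSO against 0.0732 and 0.216 CPM in WT libraries, without overlap. The log2 change was 3.51 ± 0.66 (SE; n = 3 DMSO, 2 WT; adjusted p = 0.00879 by edgeR's quasi-likelihood test). The WT libraries rest on 1 and 2 counts, and the call was lost without either of them. Muc16 in HOM glands was also at 1 and 2 counts (0.0800 and 0.0827 CPM), between both WT libraries.

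Further genes of keratinocytes were listed apart from the 36. Of 48 tested, 3 fell with SU5402 and 0 rose (median log2 -0.08), a smaller share in each direction than the 10.7% and 9.73% of all genes. These were Pax9, a factor of oral epithelium and teeth (-0.52 ± 0.07, SE), Grhl1, a grainyhead factor that controls desmosome genes (-0.60 ± 0.09), and Barx2, a homeobox factor (-0.35 ± 0.09). In HOM glands 4 of the 48 fell and 0 rose (median -0.55), beside 2.44% of all genes called lower and 3.44% called higher. The 4 were Grhl1 (-0.51 ± 0.10), Pof1b (-0.68 ± 0.14), the connexin gene Gjb2 (-0.97 ± 0.20) and Ppp1r13l (-0.32 ± 0.08). All were called by edgeR's quasi-likelihood test with Benjamini-Hochberg adjustment over all genes. Grhl1 was read at 45.5, 54.1 and 61.9 CPM with SU5402 against 85.6, 81.7 and 80.8 CPM with DMSO, and at 55.0 and 56.4 CPM in HOM against 69.5 and 78.7 CPM in HET and 85.8 and 82.8 CPM in WT libraries, with no overlap in either comparison.

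Of 17 basal epithelial genes, 6 rose and 3 fell with SU5402, and 1 rose and 4 fell in HOM glands. Of all genes, 9.73% were called higher and 10.7% lower with SU5402, and 3.44% higher and 2.44% lower in HOM glands. The smallest p-value in HOM glands was that of Ngfr, which rose (log2 1.34 ± 0.14, SE; adjusted p = 8.9e-05 by edgeR's quasi-likelihood test). Lamb3 (-0.96 ± 0.14) and Col17a1 (-0.54 ± 0.14) fell. The basal keratin gene Krt15 also fell in HOM glands (log2 -1.60 ± 0.43, SE; adjusted p = 0.0404 by the same test). Krt15 was at 30.1 and 43.6 CPM in HOM against 122 and 137 CPM in HET and 158 and 37.2 CPM in WT libraries. WT 2 again lay between the HOM libraries. The basal regulator gene Trp63 was read at 53.7 and 45.8 CPM in HOM against 38.8 and 44.1 CPM in HET and 57.6 and 66.04 CPM in WT libraries, which overlap.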

How the data were processed

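RNA-seq counts of 12 libraries were used, raw counts per gene as deposited, with no normalization per the file's values. Per the submitters' processing notes, bcl2fastq, STAR and the build GRCm39 were used. Versions, the counter, its strand setting and the annotation were not given in the sources used here. Close copies and overlapping genes were read with caution. Symbols came from GENCODE M21 by Ensembl identifier (52403 of 52636 matched), and exon lengths from the same annotation (GRCm38). Reads carry no reported molecular identifiers, so floors and intervals of counts cover counting error only.

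Differences were tested in R 4.3.3 with edgeR 4.0.16 (quasi-likelihood F test, TMM, filterByExpr with minimum count 10 and minimum total 15, 15859 genes, all 12 libraries with 1 coefficient per group, residual df 7, two-sided). P-values were adjusted by Benjamini-Hochberg over all genes tested, with calls at an adjusted p under 0.05. The SE is the log2 change divided by the square root of F. Spread is the SD of log2(CPM + 1) around group means. Alternatives, given in the closing section, were other scalings, no filter, DESeq2 1.42.0, the compared groups alone, a replicate block, a sex covariate, WT or HET alone as controls, and libraries left out.

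The 36 members, the other gene lists and the tests were chosen with earlier results of these data known. Named genes were all members, up to 4 genes by p from each other list, and the 12 genes whose deviations were most like the members' mean. Trp63, Lor, Flg, Epcam, Cdh1, Elane, Fcnb and Ly6g fall outside that rule and were chosen after their values were seen.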

Additional observations from a re-analysis of the deposited data

Results flagged for a closer look

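The effect on S100a9, an alarmin gene also abundant in neutrophils, differed between SU5402 glands (against DMSO) and HOM glands (against littermates) in a test of the difference itself (adjusted p = 0.0307 by edgeR's quasi-likelihood test). S100a9 had 0 counts in all 3 SU5402 libraries and in both HET libraries, so no fitted size is given. The call was lost in 6 of 12 fits without 1 library, namely without SU5402 1, SU5402 2, HOM 1, HOM 2, HET 1 or HET 2 (adjusted p up to 0.121). Groups of 2 or 3 libraries are too small for a test of single outlying libraries.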

How the results depend on the processing

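With edgeR RLE size factors the 4 members called lower with SU5402 and the 6 called lower in HOM were called again. The counts of members called changed under these settings. For SU5402 against DMSO, 2 rather than 0 were called higher when scaled to pan-epithelial genes (Klf4 and Zfp750; Zfp750 at 0.24, adjusted p = 0.0468) and 2 without DMSO 3 and WT 1 (Sprr1a at 3.13 and Dsg1a at 4.18 on the log2 scale, after removal of the controls highest in these genes, which sets that direction), 10 were lower without a filter and 2 with the compared groups alone. For HOM against littermates, 12 were lower and 1 higher with library totals (with Ppl, Evpl and Zfp750 no longer among them), 3 lower with pan-epithelial scaling, 18 lower and 2 higher without a filter, 0 lower with a sex covariate, and 1 to 7 lower when 1 library was left out. With WT alone as controls the same 6 were lower, and with HET alone 4 (A2ml1, Evpl, Ppl and Muc16). Between HET and WT, library totals gave 4 calls, pan-epithelial scaling 1, no filter 7, the compared groups alone 1, the sex covariate 1 and removal of DMSO 3 and WT 1 gave 3. Between DMSO and WT, library totals gave 3, no filter 10, the sex covariate 3, removal of DMSO 3 and WT 1 gave 0, and leaving out 1 library 0 to 1. For the difference of both effects, the counts were 7 with library totals, 12 without a filter, 2 with the sex covariate, 2 without DMSO 3 and WT 1, and 0 to 3 when 1 library was left out. Without a filter edgeR's prior degrees of freedom were infinite, and with library totals 103, against 7.96, so that a gene's own spread counted little in those calls. The cause of the other shifts was not tested. Libraries with the same replicate number did not deviate together (correlations from -0.147 to -0.025). In groups of 2 libraries the deviations are equal and opposite, so the sign there depends on the numbering. These correlations cannot settle whether libraries were paired. With a replicate block 4 members were lower with SU5402, 4 in HOM (A2ml1, Evpl, Ppl and Zfp750), 0 were called between HET and WT, and with the WT numbers crossed, chosen after seeing the data, 6 were lower in HOM and 1 was called between HET and WT. Removal of DMSO 3 and WT 1 was also chosen after seeing the data. A planned removal of DMSO 1 and WT 1 gave 5 lower with SU5402 and 4 in HOM. Without a call, the sign changed in 27 of 162 values with SU5402 and 6 of 162 in HOM when 1 library was left out. Levels under about 1 CPM rest on few counts, and 2 or 3 libraries per group cannot set the size of a keratin change.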
